A study of Mus musculus with 8 samples.

Results

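The genes described here are 7 mouse genes of the MHC class II antigen presentation pathway, H2-Aa, H2-Ab1, H2-Eb1, Cd74, H2-DMa, H2-DMb1 and Ciita. They were chosen by gene symbol, and they are 7 of the 21997 genes listed in both deposited count tables. Their transcripts were read in 8 libraries, each made from the polyadenylated RNA of a single follicle of a C57BL/6 ovary. The follicles were SAF-TF, small antral follicles from transplanted female germline stem cells (FGSCs), SAF-WT, small antral follicles from wild type mice, PF-TF, preantral follicles from transplanted FGSCs, and PF-WT, preantral follicles from wild type mice, with 2 libraries in each of these 4 groups. The design sets follicles grown from transplanted FGSCs (TF) against wild type follicles (WT) at both stages. Which cells of a TF follicle descend from the transplant is not stated in the labels, nor is it stated whether replicates are from different mice, and no source used here gives the age of the animals or the transplant hosts. The p-values below therefore measure only the spread between these follicles.

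MHC class II molecules are pairs of an alpha and a beta chain that hold peptides from the endosome at the cell surface for CD4+ T cells. New pairs travel with the invariant chain Cd74, whose last fragment is exchanged for a peptide with the help of the H2-DM dimer, and the genes are switched on together by the coactivator Ciita. Dendritic cells, B cells and macrophages carry these molecules constitutively, other cells can be induced to make them by interferon gamma, and the ovary holds resident macrophages between and around its follicles. C57BL/6 mice carry the b haplotype, in which the gene for the alpha chain of I-E is inactive, so that I-A (H2-Aa with H2-Ab1) is the class II molecule at their cell surface.

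Total counts ran from 7656108 to 9805287 per library. Levels are given as CPM, read counts scaled to library size with TMM factors (trimmed mean of M values), and a count of 0 in a library allows up to 3 counts, or 0.301 to 0.394 CPM. These limits, and the intervals given for ratios and shares, cover counting error only. Means are given with the SD over n = 2 libraries. The variance between the replicate counts of a group was 11.1 to 41.1 times that of counting error. Log2 fold changes are given with their SE, from the edgeR quasi-likelihood test, with p adjusted by Benjamini-Hochberg over 17925 genes, and a gene was called at an adjusted p under 0.05. The TF and the WT libraries were deposited in separate tables, so source and table cannot be told apart. A whole follicle was measured, so fewer cells of a type and less RNA per cell cannot be told apart.

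Class II transcripts were most abundant in small antral follicles from transplanted FGSCs. Here H2-Aa, H2-Ab1, H2-Eb1 and Cd74 were higher than in wild type small antral follicles, and H2-Ab1, H2-Eb1, Cd74 and H2-DMa were higher than in preantral follicles from transplanted FGSCs. The summed counts of the 7 genes were 5146 and 4145 in the SAF-TF libraries, against 155 and 312 in the SAF-WT libraries. They were 505 and 569 in PF-TF, against 624 and 266 in PF-WT. In PF-TF most of these counts came from H2-Aa alone.

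**Figure D1:**
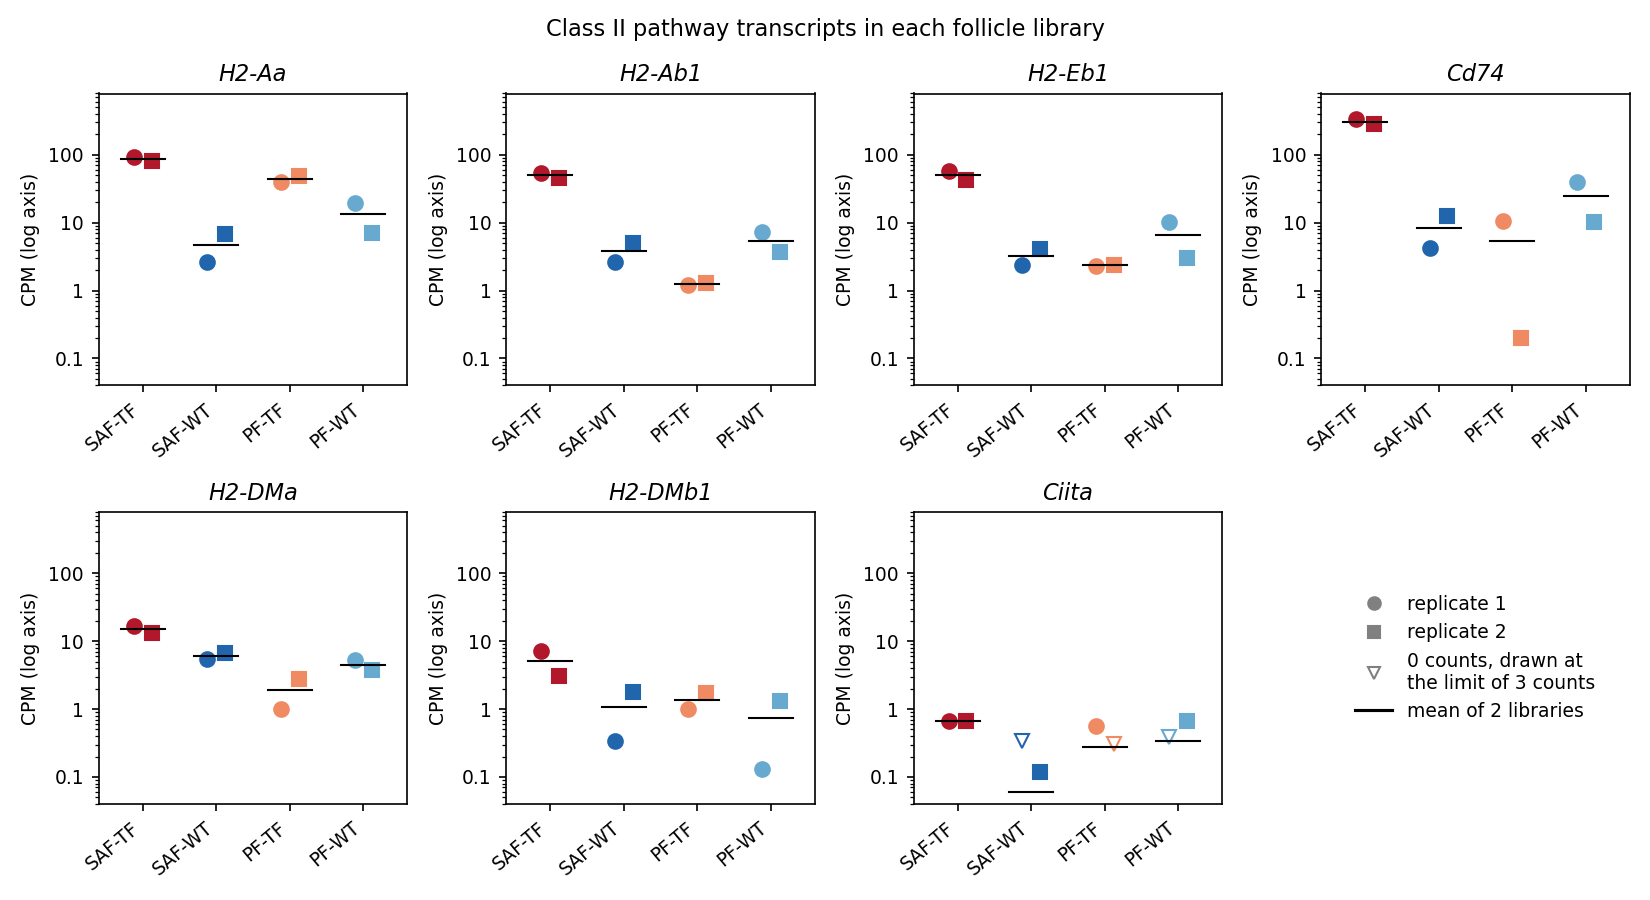
CPM of each of the 7 genes (log axis) in each library, by group, with the mean of the 2 libraries as a line. For H2-Ab1, H2-Eb1 and Cd74 both SAF-TF libraries stand above the other 6 libraries, while H2-Aa is also high in PF-TF. Counts of 0, which occur in Ciita, are drawn as open triangles at the limit of 3 counts and enter the mean as 0.

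The genes of the 2 I-A chains lie beside each other on chromosome 17, with H2-Ab1 at 34257689 to 34269419 on the plus strand and H2-Aa at 34282744 to 34287823 on the minus strand of GRCm38 (GENCODE M21). H2-Ab1, the beta chain, had 53.7 and 45.8 CPM in SAF-TF, against 2.64 and 5.10 CPM in SAF-WT. It had 1.22 and 1.30 CPM in PF-TF, against 7.22 and 3.66 CPM in PF-WT. Both SAF-TF libraries were above all other libraries and both PF-TF libraries were below them. H2-Ab1 was higher in SAF-TF than in SAF-WT (log2 fold change 3.68 ± 0.45, adjusted p = 0.00352). In TF follicles it was higher in SAF than in PF (5.28 ± 0.50, adjusted p = 6.38e-05). In WT follicles the same stage difference was -0.49 ± 0.44, with a 95% interval of -1.48 to 0.51 (adjusted p = 0.422). The stage by source interaction, which tests whether these stage effects differ, was 5.77 ± 0.66 (adjusted p = 0.00670), the smallest adjusted p of the 6 genes that could be tested. Among preantral follicles H2-Ab1 was lower in both TF libraries than in both WT libraries, but the difference did not pass the test (-2.09 ± 0.49, adjusted p = 0.0720). DESeq2 called that difference (adjusted p = 0.00722), and so did edgeR without PF-WT replicate 2 (adjusted p = 0.0284).

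H2-Aa, the I-A alpha chain, had 93.4 and 81.2 CPM in SAF-TF, against 2.64 and 6.87 CPM in SAF-WT. It had 39.3 and 48.7 CPM in PF-TF, against 19.7 and 6.99 CPM in PF-WT. At both stages the TF libraries lay above the WT libraries without overlap. H2-Aa was higher in SAF-TF than in SAF-WT (4.20 ± 0.56, adjusted p = 0.00442). Its difference between PF-TF and PF-WT did not pass the test with edgeR (1.73 ± 0.50, adjusted p = 0.101), although DESeq2 called it (adjusted p = 0.0198). Between SAF-TF and PF-TF H2-Aa differed by 0.99 ± 0.48, with a 95% interval of -0.08 to 2.05 (adjusted p = 0.121), and these libraries did not overlap. It passed in a fit of only these 4 libraries (adjusted p = 0.00674) and when PF-WT replicate 1 (0.0260) or PF-WT replicate 2 (0.0477) was left out. In WT follicles H2-Aa was 1.48 ± 0.53 log2 units lower in SAF than in PF, which narrowly missed the threshold (adjusted p = 0.0539). DESeq2 called this difference too (adjusted p = 0.0282). Its interaction did not pass (2.47 ± 0.71, adjusted p = 0.139), but DESeq2 called it (adjusted p = 0.0204), as did edgeR without PF-WT replicate 2 (0.0356).

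The I-A chains thus stood in unequal proportion in preantral follicles from transplanted FGSCs. H2-Aa had 355 and 485 counts in PF-TF, where H2-Ab1 had 11 and 13. The count ratio of H2-Aa to H2-Ab1 was 32.3 and 37.3 in PF-TF, against 2.73 and 1.91 in PF-WT. In small antral follicles it was 1.74 and 1.77 in SAF-TF, against 1.00 and 1.35 in SAF-WT. As a share of the counts of all 7 genes, H2-Aa took 70.3% (exact 95% interval 66.1 to 74.3%) and 85.2% (82.1 to 88.1%) in the PF-TF libraries. In the other 6 libraries its share was 14.8 to 24.0%. GENCODE M21 lists no gene that overlaps H2-Aa. The deposited description of the H2-Aa row names beta-2-microglobulin, although its symbol and KEGG identifier are those of H2-Aa and the gene B2m has a row of its own.

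**Figure D2:**
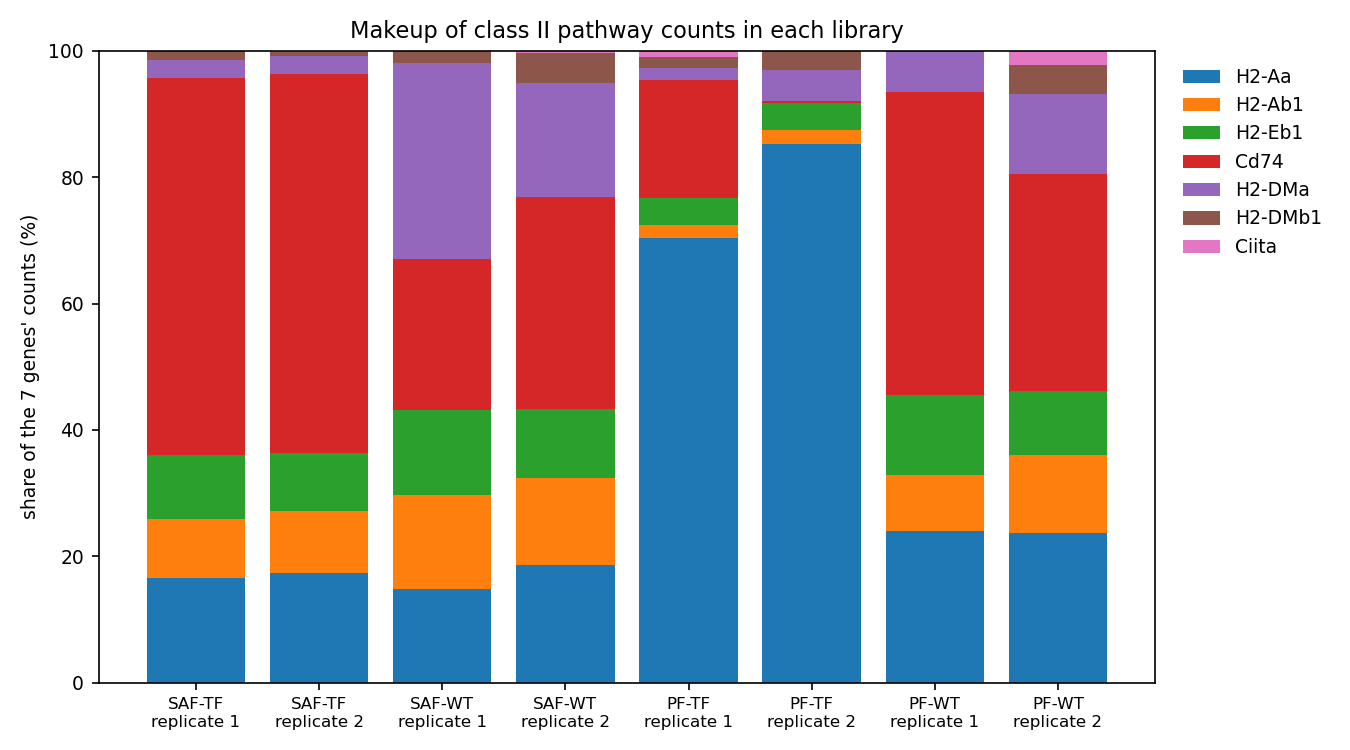
Share of the counts of the 7 genes that each gene took in each library, in percent. H2-Aa takes 70.3% and 85.2% in the PF-TF libraries, and Cd74 takes 59.6% and 59.9% in the SAF-TF libraries.

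H2-Eb1, the beta chain of I-E, lies on chromosome 17 at 34305867 to 34316674 on the plus strand. It had 57.2 and 43.2 CPM in SAF-TF, against 2.41 and 4.03 CPM in SAF-WT. It had 2.33 and 2.41 CPM in PF-TF, against 10.4 and 2.996 CPM in PF-WT. As for H2-Ab1, the SAF-TF libraries were the highest, and the PF-TF libraries were below the PF-WT libraries. H2-Eb1 was higher in SAF-TF than in SAF-WT (3.96 ± 0.57, adjusted p = 0.00559) and than in PF-TF (4.40 ± 0.58, adjusted p = 3.43e-04). Its stage effect differed between TF and WT (interaction 5.44 ± 0.79, adjusted p = 0.0200). In WT follicles the stage difference was -1.04 ± 0.55, with a 95% interval of -2.27 to 0.19 (adjusted p = 0.169). Between PF-TF and PF-WT it was -1.48 ± 0.56 (adjusted p = 0.176). Without PF-WT replicate 2 both of these differences passed (adjusted p = 0.0188 and 0.0312). Without SAF-WT replicate 1 the source difference in SAF no longer passed (adjusted p = 0.0581). The interaction no longer passed without SAF-TF replicate 1 (adjusted p = 0.0653), SAF-WT replicate 1 (0.0536) or SAF-WT replicate 2 (0.0713). The antisense transcript Gm20513 overlaps H2-Eb1 over 2204 bases, and with the strand setting not given reads of the pair cannot be told apart.

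H2-Ea-ps, the row of the inactive I-E alpha chain gene, was near the limit of detection. It had 15 and 11 counts in SAF-TF, against 0 and 1 count in SAF-WT. It had 0 counts in both PF-TF libraries, against 5 and 0 counts in PF-WT. Its level in SAF-TF was at least 4.58-fold higher than in PF-TF, against a floor of 3 counts per library. The ratio of SAF-TF to SAF-WT, 24.8, had a counting interval of 4.08 to 1018.

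Sequences before the start sites show a layout that 3 of these genes share. Class II promoters are known for an X box, bound by the RFX complex, followed by a Y box, bound by NF-Y, on which Ciita assembles. RefSeq windows of 250 bases before to 50 after the start (build GRCm38.p6) were at hand for 4 of the 7 genes, H2-Aa, H2-Eb1, H2-DMa and H2-DMb1. The 3 windows that held both motifs are printed because they show the pair at like spacing in genes whose levels are compared here. Capitals mark GNAACT, a core of the X box, and TGATTGG, the Y box, in that order on the strand of the gene. The windows are chr17:34287774-34288073 (minus strand) for H2-Aa, chr17:34305617-34305916 (plus strand) for H2-Eb1 and chr17:34152941-34153240 (plus strand) for H2-DMb1.
H2-Aa: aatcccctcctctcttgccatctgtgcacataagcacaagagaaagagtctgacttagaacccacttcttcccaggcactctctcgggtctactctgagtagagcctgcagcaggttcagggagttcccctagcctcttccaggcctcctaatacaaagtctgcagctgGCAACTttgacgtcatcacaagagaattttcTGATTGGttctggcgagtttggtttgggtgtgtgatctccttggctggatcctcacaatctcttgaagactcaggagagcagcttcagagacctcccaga
H2-Eb1: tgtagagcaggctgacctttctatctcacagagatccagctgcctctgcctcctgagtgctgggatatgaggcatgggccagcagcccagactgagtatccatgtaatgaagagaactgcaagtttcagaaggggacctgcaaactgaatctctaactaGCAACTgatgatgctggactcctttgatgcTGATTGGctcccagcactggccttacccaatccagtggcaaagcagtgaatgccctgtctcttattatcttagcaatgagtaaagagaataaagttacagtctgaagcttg
H2-DMb1: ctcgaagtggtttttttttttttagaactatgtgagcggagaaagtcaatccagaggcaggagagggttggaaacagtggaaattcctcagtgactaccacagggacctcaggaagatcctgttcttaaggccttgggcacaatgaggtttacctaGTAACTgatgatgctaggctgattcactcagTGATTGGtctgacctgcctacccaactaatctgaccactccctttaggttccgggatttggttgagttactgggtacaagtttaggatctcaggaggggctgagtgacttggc
The gap between the motifs was 25 bases in H2-Aa, 24 in H2-Eb1 and 25 in H2-DMb1, and the Y box began at -50, -61 and -63 from the start in these genes, in that order. Both H2-DMa windows lacked the pair, but they begin at 34122582 and 34125268, inside the gene annotated from 34119541, so its annotated start was not searched. Both strands were searched, the motifs were chosen after the sequences had been seen, and the pair was counted where 10 to 40 bases lay between its parts, which do not overlap. Of 32817 mouse promoter windows of this length, 7.8% held TGATTGG, 42.8% held GNAACT and 0.274%, or 90 windows, held the pair. A match of letters describes the sequence and does not show that a factor binds there.

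Cd74, the invariant chain, lies on chromosome 18 at 60803848 to 60812652 on the plus strand and was the most abundant of the 7 transcripts in SAF-TF. It had 337 and 280.2 CPM in SAF-TF, against 4.24 and 12.4 CPM in SAF-WT. It had 10.5 and 0.201 CPM in PF-TF, against 39.3 and 10.1 CPM in PF-WT. The SAF-TF libraries stood far above the rest, and the PF-TF libraries differed widely from each other, with 95 and 2 counts. Cd74 was higher in SAF-TF than in SAF-WT (5.21 ± 1.09, adjusted p = 0.0206) and than in PF-TF (5.86 ± 1.13, adjusted p = 0.00269). The source difference in SAF no longer passed without SAF-TF replicate 1 (adjusted p = 0.101), SAF-WT replicate 1 (0.159) or SAF-WT replicate 2 (0.0774). Between PF-TF and PF-WT Cd74 differed by -2.21 ± 1.02, with a 95% interval of -4.50 to 0.07, and the libraries overlapped (adjusted p = 0.254). Between SAF-WT and PF-WT it differed by -1.56 ± 0.99 (adjusted p = 0.247). The interaction of Cd74, 7.42 ± 1.48, narrowly missed the threshold with edgeR (adjusted p = 0.0577), while DESeq2 called it (adjusted p = 0.0288). Without PF-TF replicate 1 the interaction was 12.15 and the stage effect in TF 10.59.

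H2-DMa and H2-DMb1 encode the chains of H2-DM, which loads peptides onto class II molecules. H2-DMa lies on chromosome 17 at 34119541 to 34139101 and H2-DMb1 at 34153072 to 34160230, both on the plus strand. H2-DMa had 16.7 and 13.4 CPM in SAF-TF, against 5.51 and 6.64 CPM in SAF-WT. It had 0.997 and 2.81 CPM in PF-TF, against 5.25 and 3.77 CPM in PF-WT. No pair of groups overlapped within a stage or within a source, which is weak evidence with 2 libraries per group. In WT follicles the separation was small, with a stage difference of 0.43 (adjusted p = 0.533). Among its comparisons the stage effect in TF passed the test (2.97 ± 0.53, adjusted p = 0.00183). The source difference in SAF was 1.31 ± 0.49, with a 95% interval of 0.21 to 2.41 (adjusted p = 0.114), and it passed in a fit of only the 4 SAF libraries (adjusted p = 0.0192). Between PF-TF and PF-WT H2-DMa differed by -1.23 ± 0.53 (adjusted p = 0.229), and its interaction was 2.54 ± 0.72 (adjusted p = 0.138, or 0.0452 without PF-TF replicate 2). H2-DMa overlaps Brd2, a gene of the opposite strand, over 3094 bases. Brd2 had 43.6 and 38.1 CPM in SAF-TF, against 29.6 and 25.8 CPM in SAF-WT, and 63.9 and 58.2 CPM in PF-TF, against 35.5 and 45.8 CPM in PF-WT. Its part in the counts of H2-DMa was not tested.

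H2-DMb1 had 7.26 and 3.05 CPM in SAF-TF, against 0.344 and 1.78 CPM in SAF-WT. It had 0.997 and 1.71 CPM in PF-TF, against 0.131 and 1.33 CPM in PF-WT. The SAF-TF libraries were again the highest, while the other groups overlapped each other at 1 to 17 counts per library. H2-DMb1 passed no test in the fit of all 8 libraries, with a source difference in SAF of 2.27 ± 1.00 and a 95% interval of 0.03 to 4.51 (adjusted p = 0.171). In TF follicles its stage difference was 1.92 ± 0.97 (adjusted p = 0.140, or 0.0475 in a fit of only these 4 libraries). H2-DMb2, its near-identical neighbour, had 19 and 16 counts in SAF-TF, against 3 and 0 counts in SAF-WT. Reads of this pair may have been split or shared by the counting, so neither value is certain.

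Ciita, the coactivator, lies on chromosome 16 at 10480059 to 10528418 and was at the limit of detection in every library. It had 6 and 6 counts in SAF-TF, against 0 and 1 count in SAF-WT. It had 5 and 0 counts in PF-TF, against 0 and 6 counts in PF-WT. The SAF-TF libraries were above the SAF-WT libraries, and the preantral groups overlapped. The ratio of SAF-TF to SAF-WT over summed counts was 11.5, with a counting interval of 1.70 to 490.1. Ciita did not pass the filter on low counts, and with no such filter its source difference in SAF did not pass the test (adjusted p = 0.369). Dexi overlaps Ciita on the opposite strand over 25888 bases. It had 170 and 138 counts in SAF-TF, against 40 and 53 counts in SAF-WT, and its part in the counts of Ciita was not tested.

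Of the 7 genes, 6 passed the filter and were tested. Each of these also reached its minimum of 1.12 CPM in at least 3 libraries outside SAF-TF. Between SAF-TF and SAF-WT 4 of the 6 were called, all higher in SAF-TF, beside 9.96% of all genes tested that were called and 4.61% that were called higher. Without SAF-WT replicate 1 the count was 2. Between SAF-TF and PF-TF 4 were called, all higher in SAF-TF, beside 43.2% of all genes called and 18.2% called higher. The stage by source interaction was called for H2-Ab1 and H2-Eb1, both positive, beside 0.904% of all genes called and 0.658% called as positive. It was called for 1 gene without SAF-TF replicate 1, SAF-WT replicate 1 or SAF-WT replicate 2, and for 4 genes without PF-TF replicate 2 or PF-WT replicate 2. The stage and the source comparisons share libraries, so these counts are not independent of each other.

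Between PF-TF and PF-WT edgeR called 0 of the 6, beside 0.218% of all genes. Of the 6, 4 had an unadjusted p under 0.05, H2-Aa higher in PF-TF and H2-Ab1, H2-Eb1 and H2-DMa lower, and DESeq2 called 2, H2-Aa and H2-Ab1. Over all genes 20.7% had an unadjusted p under 0.05 in this comparison, and DESeq2 called 6.91%. Between SAF-WT and PF-WT edgeR called 0 as well, beside 35.1% of all genes. Here H2-Aa alone had an unadjusted p under 0.05, and DESeq2 called it. Over all genes these shares were 45.2% and 36.2%. Leaving out PF-WT replicate 2 gave 2 calls in each of these comparisons, and leaving out SAF-WT replicate 2 gave 1 call between SAF-WT and PF-WT.

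**Figure D3:**
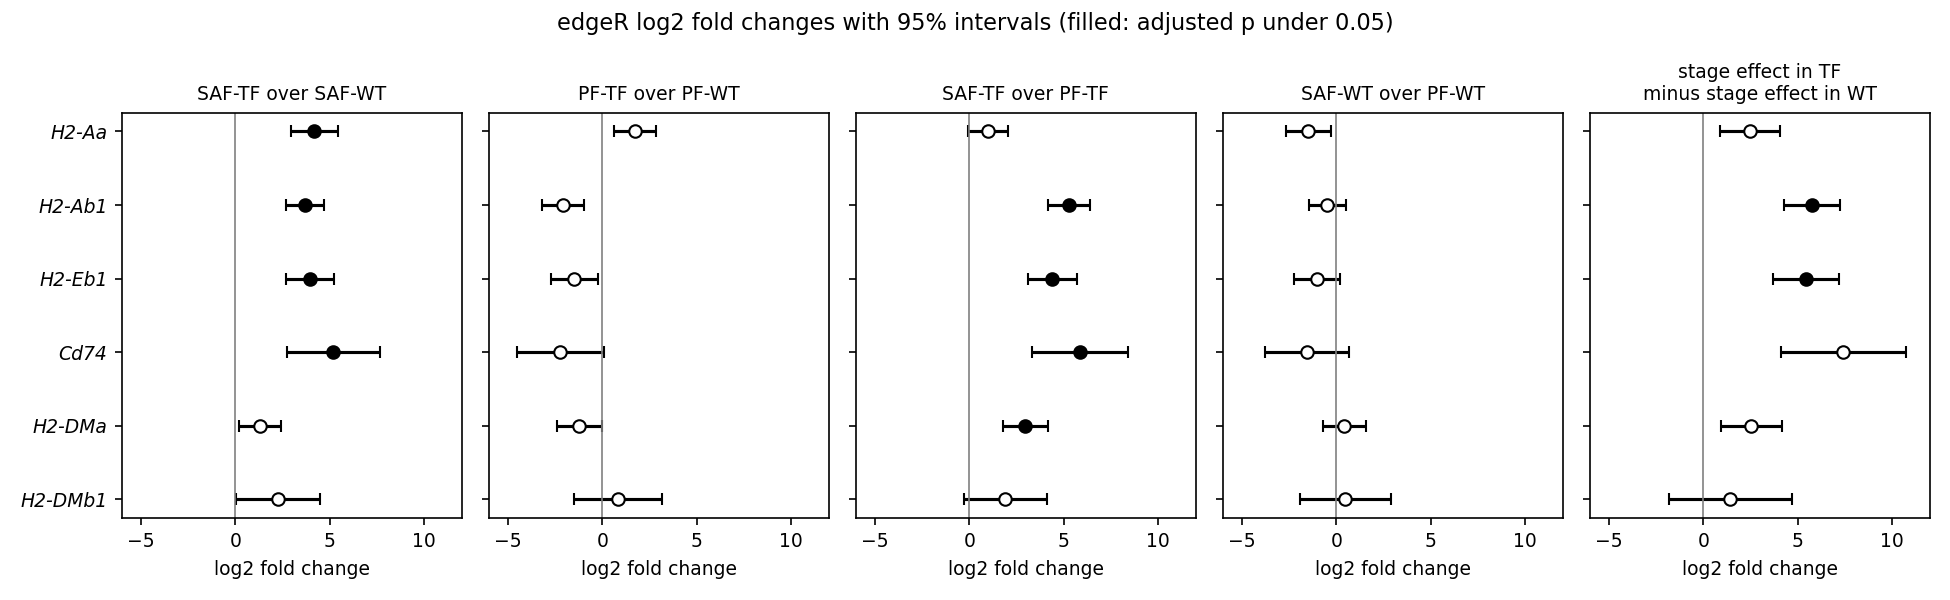
Log2 fold change of each tested gene with its 95% interval in each comparison, from the edgeR fit, with called genes marked. H2-Ab1 at 3.68, H2-Eb1 at 3.96, H2-Aa at 4.20 and Cd74 at 5.21 are called in SAF-TF over SAF-WT, while no gene is called in PF-TF over PF-WT.

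Divided by transcript length, the order of the genes differed between the groups. In SAF-TF, levels per kilobase followed the order Cd74 (218.9 CPM per kb), H2-Aa (77.4), H2-Ab1 (41.0), H2-Eb1 (30.1), H2-DMa (9.09), H2-DMb1 (3.67) and Ciita (0.111). In SAF-WT the first 4 were close, with Cd74 at 5.92 ± 4.11, H2-Aa at 4.22 ± 2.65, H2-DMa at 3.66 ± 0.48 and H2-Ab1 at 3.19 ± 1.43 CPM per kb, which do not differ beyond their spread. In PF-TF H2-Aa led with 39.0 ± 5.86 CPM per kb, and Cd74, H2-Eb1, H2-DMa, H2-Ab1 and H2-DMb1 lay between 3.80 and 0.963 CPM per kb. In PF-WT Cd74 (17.5 ± 14.6 CPM per kb) and H2-Aa (11.8 ± 7.96 CPM per kb) led and did not differ beyond their spread. H2-DMa took 31.0% and 17.9% of the counts of the 7 genes in the SAF-WT libraries, against 2.95% and 2.87% in the SAF-TF libraries.

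Among other genes of the pathway, some enzymes that process antigens rose where the class II chains did. Of 7 genes that process antigens and the invariant chain, 2 rose in SAF-TF relative to SAF-WT. These were Lgmn, the endosomal asparaginyl protease (3.66 ± 0.46, adjusted p = 0.00402), and Ctsb, cathepsin B (2.24 ± 0.43, adjusted p = 0.0155). Lgmn had 193 and 72.7 CPM in SAF-TF, against 8.95 and 12.1 CPM in SAF-WT, and Ctsb had 738.8 and 421 CPM in SAF-TF, against 102 and 143 CPM in SAF-WT. The median over these 7 genes was 0.78, beside 0.00 over all genes, of which 4.61% were called higher. Between SAF-TF and PF-TF 6 of the 7 rose, among them Ctss, the cathepsin that trims the invariant chain (4.90 ± 1.20, adjusted p = 0.00886), and Ifi30, a lysosomal thiol reductase (1.41 ± 0.28, adjusted p = 0.00303). The median over the 7 was 1.18, beside -0.08 over all genes, of which 18.2% were called higher. Between SAF-WT and PF-WT 1 rose and 1, Lgmn, fell (-1.63 ± 0.44, adjusted p = 0.0176), beside 35.1% of all genes called. Between PF-TF and PF-WT and in the interaction none of the 7 was called.

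H2-Oa, a chain of the H2-O dimer that holds H2-DM in check, was lower in SAF than in PF in both TF and WT follicles. It had 1.43 and 1.24 CPM in SAF-TF, against 8.42 and 14.95 CPM in PF-TF (-3.12 ± 0.49, adjusted p = 9.21e-04). It had 0.574 and 0.355 CPM in SAF-WT, against 14.7 and 11.8 CPM in PF-WT (-4.79 ± 0.56, adjusted p = 2.96e-04). H2-Ob, the other chain of the dimer, did not go with H2-Oa. It had 6 and 6 counts in SAF-TF and 0 and 8 in SAF-WT, against 0 in every PF library, and was too low to be tested. The level of the dimer cannot be read from H2-Oa alone. Beside 18.2% of all genes called higher in SAF-TF than in PF-TF, 2 of 5 genes for costimulation and class II turnover rose. These were March1, a ubiquitin ligase that removes class II molecules from the surface, with 18 and 21 counts in SAF-TF and 0 in both PF-TF libraries, and the costimulatory ligand gene Cd86, with 52 and 45 counts in SAF-TF, against 6 and 0 in PF-TF. In the other comparisons none of the 5 was called.

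The genes of the factors that bind class II promoters did not pass the test between TF and WT follicles. Of 7 such genes (Rfx5, Rfxap, Rfxank, Nfya, Nfyb, Nfyc and Creb1), none was called between SAF-TF and SAF-WT, beside 9.96% of all genes called. The median there was 0.11 and the range -0.72 to 0.51. Nor was any called between PF-TF and PF-WT (median 0.06, range -0.61 to 0.61), beside 0.218% of all genes called. With so few genes called at large, the absence of calls among 7 genes says little. Rfx5, a subunit of the RFX complex, had 9.90 and 8.80 CPM in SAF-TF, against 12.2 and 15.5 CPM in SAF-WT. It was lower in SAF-TF than in PF-TF, where it had 31.6 and 17.6 CPM (-1.39 ± 0.36, adjusted p = 0.0119). Of the 7, 1 rose and 3 fell between SAF-TF and PF-TF, beside 43.2% of all genes called. Between SAF-WT and PF-WT 1 of the 7 rose and 2 fell, beside 35.1% of all genes called. Of 13 interferon gamma pathway and target genes tested, 2 were higher in SAF-TF than in SAF-WT, Socs1, a feedback inhibitor (3.57 ± 0.48, adjusted p = 0.00487), and the transcription factor gene Irf1 (1.16 ± 0.30, adjusted p = 0.0405), of which Irf1 was named after its values were seen. Over all genes 4.61% were called higher in SAF-TF than in SAF-WT. Between SAF-TF and PF-TF 4 of the 13 rose and 3 fell, beside 43.2% of all genes called. Between SAF-WT and PF-WT 3 rose and 3 fell, beside 35.1% of all genes called. Between PF-TF and PF-WT and in the interaction none of the 13 was called.

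Class I genes, which present peptides from the cytosol to CD8+ T cells, were compared in the same way. Of 8 such genes, 2 were higher in SAF-TF than in SAF-WT, Psmb8, a subunit of the immunoproteasome (1.41 ± 0.27, adjusted p = 0.0148), and Tap2, a chain of the peptide transporter (3.22 ± 0.88, adjusted p = 0.0488). Psmb8 had 72.2 and 70.3 CPM in SAF-TF, against 25.5 and 28.2 CPM in SAF-WT, and 8.42 and 7.53 CPM in PF-TF, against 15.2 and 11.2 CPM in PF-WT. It was the only gene of the 8 called in the interaction (2.13 ± 0.38, adjusted p = 0.0380). Between SAF-TF and PF-TF 6 of the 8 rose, beside 18.2% of all genes called higher. Between SAF-WT and PF-WT 2 rose, beside 35.1% of all genes called, and between PF-TF and PF-WT none was called. The median over the 8 genes was 1.00 between SAF-TF and SAF-WT, where 4.61% of all genes were called higher. B2m, the light chain of class I molecules, had 923.2 and 1212 CPM in SAF-TF, against 1839 and 1665 CPM in SAF-WT (-0.72 ± 0.27, adjusted p = 0.119). It had 253.7 and 313.7 CPM in PF-TF, against 812.0 and 465.8 CPM in PF-WT (-1.17 ± 0.27, adjusted p = 0.0720), so at both stages the TF libraries lay below the WT libraries. With B2m the class I genes summed to 1186 and 1443 CPM in SAF-TF, against 1939 and 1810 CPM in SAF-WT.

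Some markers of macrophages were called in the comparisons in which class II genes were called. The summed level of 14 macrophage and monocyte markers was 940.0 and 1484 CPM in SAF-TF, against 387.1 and 462.5 CPM in SAF-WT. It was 61.8 and 32.3 CPM in PF-TF, against 559.6 and 114.5 CPM in PF-WT. As for H2-Ab1, the SAF-TF libraries were the highest and the PF-TF libraries the lowest. Of the 14, 3 were called higher in SAF-TF than in SAF-WT, Emr1, which encodes the F4/80 antigen (1.78 ± 0.48, adjusted p = 0.0469), the lysosomal gene Cd68 (2.59 ± 0.55, adjusted p = 0.0208) and the complement gene C1qb (2.20 ± 0.40, adjusted p = 0.0132). The same 3 genes were called in the interaction, at 4.26, 4.82 and 3.41 in that order. Over all genes 4.61% were called higher in SAF-TF than in SAF-WT and 0.658% as positive in the interaction. Between SAF-TF and PF-TF 14 of 14 rose, with a median of 5.01, beside 18.2% of all genes called higher. Between SAF-WT and PF-WT 3 of the 14 rose, Aif1, Tyrobp and Fcer1g, with a median over the 14 of 0.54. No class II gene was called there, beside 35.1% of all genes called. Leaving out 1 library in turn moved the count in SAF between 0 and 8 and that of the interaction between 0 and 9. Both counts were 0 without SAF-TF replicate 2, SAF-WT replicate 1 or SAF-WT replicate 2, and they were 8 and 9 without PF-WT replicate 2. Between PF-TF and PF-WT the 6 class II genes tested had a median of -1.35. H2-Ab1 (-2.09), H2-Eb1 (-1.48), Cd74 (-2.21) and H2-DMa (-1.23) were negative, while H2-Aa (1.73) and H2-DMb1 (0.84) were positive. Of the 14 markers 0 were called there, with a median of -2.14, beside 0.218% of all genes called. Without PF-WT replicate 2 that count was 7. The part of these markers in the class II result was not tested.

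The class II sum stood in unequal proportion to these markers in TF and WT follicles, which was not tested. As a percentage of the macrophage sum, the 7 class II genes together came to 60.2% and 31.5% in SAF-TF, against 4.59% and 7.99% in SAF-WT. In preantral follicles they came to 90.5% and 176.7% in PF-TF, against 14.6% and 25.8% in PF-WT. At both stages the TF libraries lay above the WT libraries. Without H2-Aa, which made up most of the class II counts in PF-TF, the percentage was 50.3% and 26.0% in SAF-TF, against 3.91% and 6.51% in SAF-WT. It was then 26.9% and 26.1% in PF-TF, against 11.1% and 19.7% in PF-WT, again without overlap. Much of the macrophage sum in PF-WT was Lyz2 alone, with 393 of 559.6 CPM and 61.1 of 114.5 CPM. In PF-TF Lyz2 had 15.8 of 61.8 CPM and 2.91 of 32.3 CPM. The preantral order of the percentages without H2-Aa, where the groups lie closer, may therefore rest on Lyz2. Percentages without Lyz2 were not computed.

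**Figure D4:**
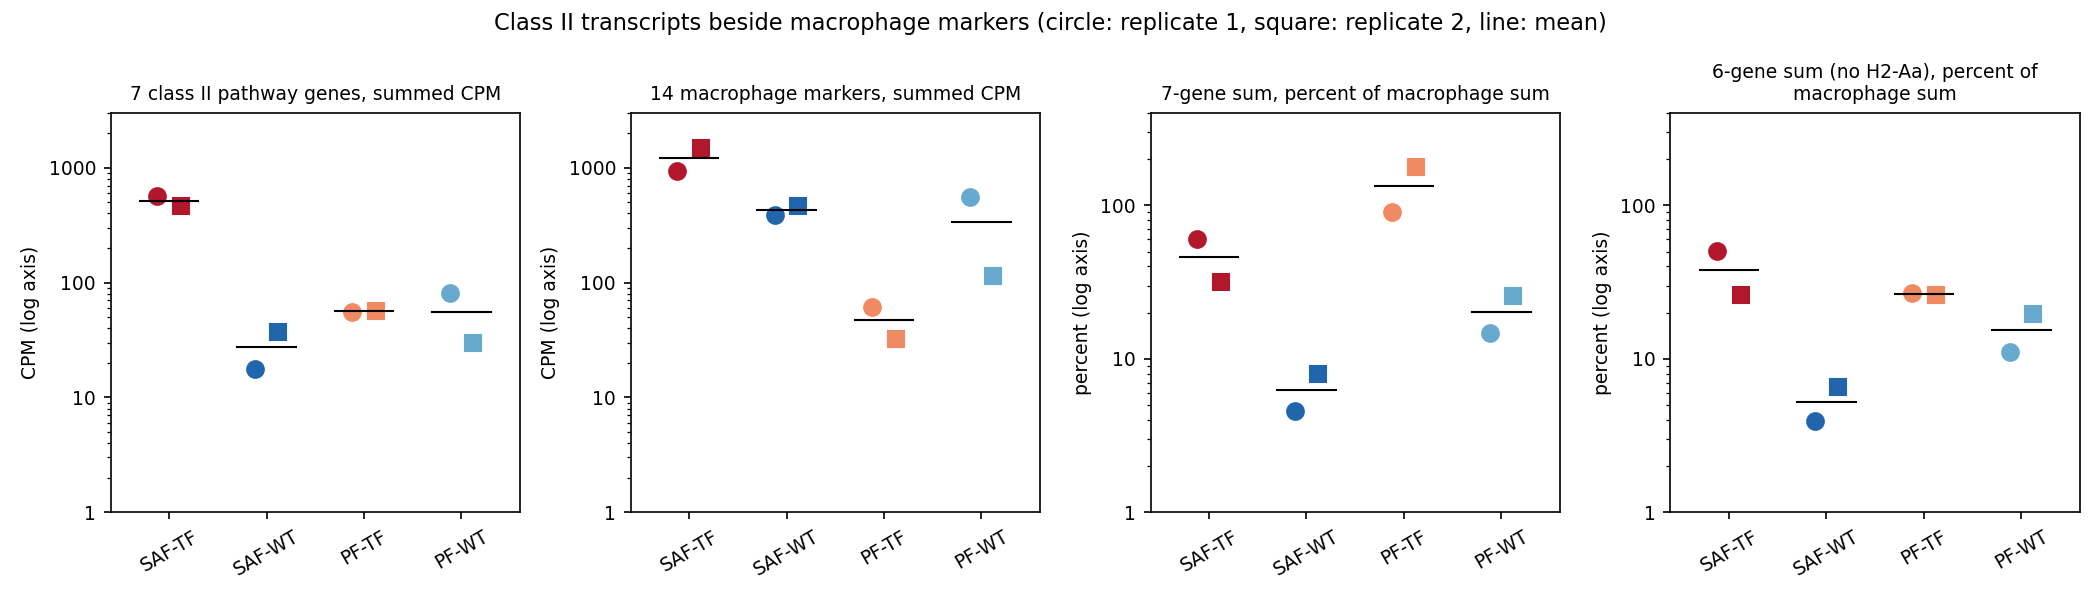
Summed CPM of the 7 class II genes, summed CPM of 14 macrophage markers, and the class II sum as a percentage of the macrophage sum with and without H2-Aa (log axes), in each library. In both percentages the TF libraries lie above the WT libraries of the same stage. Without H2-Aa the PF-TF libraries are at 26.9% and 26.1%, against 90.5% and 176.7% with it. Lyz2 is the largest part of the macrophage sum in PF-WT, and the preantral order without H2-Aa may rest on it, which was not tested.

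Markers of other leukocytes did not share a single pattern. Ptprc, the leukocyte antigen CD45, had 38 and 110 counts in SAF-TF, against 21 and 33 counts in SAF-WT. It had 2 and 0 counts in PF-TF, against 26 and 2 counts in PF-WT. The macrophage receptor gene Csf1r had 85 and 57 counts in SAF-TF, against 2 and 16 counts in SAF-WT, and 2 and 2 counts in PF-TF, against 33 and 9 counts in PF-WT. Of 5 general leukocyte genes, 2 were higher in SAF-TF than in SAF-WT, beside 4.61% of all genes called higher. All 5 were higher in SAF-TF than in PF-TF, beside 18.2% of all genes. The dendritic cell integrin gene Itgax had 2 and 13 counts in SAF-TF, against 0 and 1 in SAF-WT. The 8 dendritic cell markers summed to 24.1 and 20.3 CPM in SAF-TF, against 25.0 and 21.3 CPM in SAF-WT. Zbtb46 and Batf3 made up most of this sum, and single markers went both ways. Xcr1 had 6 and 13 counts in SAF-TF, against 0 and 1 in SAF-WT. Batf3 had 40 and 40 counts in SAF-TF, against 67 and 77 in SAF-WT. The like sums therefore say little about dendritic cells. The B cell receptor gene Cd79a had 5 and 11 counts in SAF-TF, against 11 and 7 in SAF-WT. Its partner Cd79b had 24 and 41 counts in SAF-TF, against 4 and 5 in SAF-WT, and 0 counts in both PF-TF libraries, against 20 and 2 in PF-WT. Its difference between SAF-TF and SAF-WT did not pass (2.76 ± 1.11, adjusted p = 0.146). The B cell surface gene Ms4a1 was higher in preantral follicles, with 187 and 214 counts in PF-TF, against 652 and 369 in PF-WT, while it had 13 and 18 in SAF-TF, against 6 and 9 in SAF-WT. Among T cell genes Cd3e had 2 and 5 counts in SAF-TF, against 0 and 1 in SAF-WT, and Cd3g had 7 and 18 in SAF-TF, against 23 and 22 in SAF-WT. Markers of the follicle's own cells were detected in every library. The 7 oocyte markers summed to 283.6 and 116.5 CPM in SAF-TF, against 211.8 and 1514 CPM in SAF-WT. In preantral follicles they summed to 11691 and 10412 CPM in PF-TF, against 4879 and 4702 CPM in PF-WT, without overlap. Their median log2 fold change there was 1.25, and 0 of the 7 were called, beside 0.218% of all genes called. The 5 granulosa markers summed to 1359 and 1909 CPM in SAF-TF, against 400.3 and 490.5 CPM in SAF-WT, and to 3103 and 3014 CPM in PF-TF, against 1538 and 2599 CPM in PF-WT. Of these, Inha (2.26 ± 0.31, adjusted p = 0.00500) and Fshr (1.46 ± 0.40, adjusted p = 0.0489) were called higher in SAF-TF than in SAF-WT, beside 4.61% of all genes. Of 5 endothelial markers Emcn was called lower there (-2.08 ± 0.44, adjusted p = 0.0206), beside 9.96% of all genes called in either direction. The part of these cell types in the class II result was not tested.

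Among 15045 other genes, the profile over the 8 libraries most like that of H2-Aa, H2-Ab1, H2-Eb1 and Cd74 was that of Aatk, a kinase gene, at a root mean square difference of 0.25 log2 units. The median over these genes was 2.07 log2 units. The next 7 were Ly9, LOC102639280, LOC102638993, Gpx3, Igj, Laptm5 and Pilrb1, at 0.50 to 0.63 log2 units. Most of them had few counts, such as Aatk with 23 and 21 counts in SAF-TF and 0 to 2 counts in the other libraries. Aatk, Ly9, LOC102639280, LOC102638993 and Pilrb1 reached the filter's minimum of 1.12 CPM in SAF-TF alone. With few or no counts elsewhere, their profile was largely set by that filter and the prior count of 0.5. Their closeness was therefore largely fixed in advance and is no finding about these genes. Gpx3, a secreted glutathione peroxidase, was abundant, with 661.4 and 299.6 CPM in SAF-TF, against 43.0 and 59.1 CPM in SAF-WT, and 57.9 and 35.0 CPM in PF-TF, against 142 and 63.3 CPM in PF-WT. Igj, the joining chain of secreted antibodies, had 151 and 170 counts in SAF-TF, against 4 and 8 in SAF-WT, and 12 and 7 in PF-TF, against 7 and 8 in PF-WT. By the same measure H2-Eb1 lay at 0.37, H2-Ab1 at 0.59, H2-Aa at 1.53 and Cd74 at 1.54 log2 units from the mean profile that they helped to form.

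In the authors' deposited table, which compares stages within a source, 6 of the 7 genes had an adjusted p under 0.05 between SAF-TF and PF-TF, Ciita being the exception. The authors' deposited table gives log2 ratios there of 1.33 for H2-Aa, 5.65 for H2-Ab1, 4.75 for H2-Eb1, 6.22 for Cd74, 3.31 for H2-DMa and 2.25 for H2-DMb1. Between SAF-WT and PF-WT the authors' deposited table called 0 of the 7.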

How the data were processed

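Polyadenylated RNA of 8 single follicles was turned into cDNA libraries with a SMARTer low input kit, per the labels' protocols. The submitters' processing notes name HISAT2 2.0.1 and GRCm38. Counter, annotation and strand setting are not stated in any source used here. Raw counts were deposited per gene and library, in 1 table for TF and 1 for WT, as the file headers and whole values show. The authors' normalized columns are a signal, a scaled group mean per table, the authors' log2 column compares SAF with PF, and the authors' FDR column holds adjusted p-values from an unnamed test. Genes in both tables (21997) were analysed together, which left out 132 genes found in the TF table alone and 141 found in the WT table alone.

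Genes were kept by filterByExpr (min.count 10, min.total.count 15; 17925 genes) and tested by quasi-likelihood in edgeR 4.0.16 under R 4.3.3, using TMM factors, a mean for each group, 4 residual degrees of freedom and Benjamini-Hochberg adjustment. The common biological coefficient of variation was 0.303. Each SE is the log2 fold change over the root of its F statistic. The fit was tested on simulated data for the source effect in SAF. It recovered 41.1% of changes of 1.5 log2 units and 78.8% of changes of 3 log2 units. A difference that did not pass is therefore not shown to be absent. Log2 CPM for profiles used a prior count of 0.5. Lengths are those of the longest GENCODE M21 transcript paired with a RefSeq mRNA. Total counts per library, 7656108 to 9805287, set the counting precision.

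Named genes were the 7 genes, per list up to 4 genes with the smallest interaction p plus defining markers, and the 8 genes of nearest profile; others were named after their values were seen. The genes and lists were chosen with earlier results of these data known. Alternatives were RLE factors, no filter, a filter at 10 CPM, DESeq2 1.42.0, only the 4 libraries compared, a replicate block, each library left out and, chosen after seeing the data, library totals. H2-Eb2, H2-Ea and Ifng were not analysed here.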

Additional observations from a re-analysis of the deposited data

Results flagged for a closer look

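The effect of stage differed between follicles from transplanted FGSCs and wild type follicles for 2 of the 6 genes tested, by the stage by source interaction of the edgeR fit. For H2-Ab1 the interaction was 5.77 ± 0.66 on the log2 scale (adjusted p = 0.00670), where the stage effect of SAF over PF was 5.28 in TF and -0.49 in WT. H2-Ab1 kept its call in every alternative run, with an adjusted p of at most 0.0283. For H2-Eb1 the interaction was 5.44 ± 0.79 (adjusted p = 0.0200), where the stage effect was 4.40 in TF and -1.04 in WT. The call of H2-Eb1 was lost when SAF-TF replicate 1, SAF-WT replicate 1 or SAF-WT replicate 2 was left out, with adjusted p of 0.0653, 0.0536 and 0.0713 in that order.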

How the results depend on the processing

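With 2 libraries per group and 4 residual degrees of freedom, single libraries decide several calls. Of 439 values of the genes under alternatives, 404 kept direction and side of the threshold, 23 came to pass it, 7 no longer passed and 5 changed direction. Direction changed in these cases, all with a library left out. In SAF-WT over PF-WT, H2-DMb1 ran from -1.10 (SAF-WT replicate 2 left out) to 2.88 and was -0.22 with PF-WT replicate 1 left out. That setting also gave H2-Ab1 0.19, in a range down to -1.03, and H2-Eb1 0.21, in a range down to -1.69. The interaction of H2-DMb1 ran from -0.97, with PF-WT replicate 2 left out, to 3.01. Leaving out each library in turn gave 2 to 4 called genes in the source effect in SAF, 0 to 2 in that in PF, 4 to 5 in the stage effect in TF, 0 to 2 in that in WT, and 1 to 4 in the interaction. The stage effect in WT had 1 call with no low-count filter, 1 with library totals and 1 with DESeq2, which also gave 2 calls in the source effect in PF and 4 in the interaction; the cause was not tested. Fitting only the 4 libraries compared gave 5 calls in the source effect in SAF and 6 in the stage effect in TF. The filter at 10 CPM left 5 of the 7 genes.

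Same-numbered libraries did not deviate together (correlations of -0.0976 to 0.0789), which gave no sign that the numbers pair the follicles. With 1 replicate difference per group these correlations cannot exclude a pairing, and the labels do not state one. The replicate block left 4, 0, 4, 0 and 2 genes called in the source effects in SAF and PF, the stage effects in TF and WT, and the interaction; over all genes it gave 1069 calls against 1785 in the source effect in SAF, 6 against 39 in that in PF and 74 against 162 in the interaction. DESeq2 gave 2771, 1238 and 793 in these comparisons. With no low-count filter 207 genes were called in the source effect in PF, with library totals 16 and RLE factors 26. Only the 4 libraries compared gave 3921 in SAF and 3 in PF. With library totals 1102 of 1692 calls in the source effect in SAF were higher in SAF-TF, against 827 of 1785 with TMM factors, and the median of all genes there was 0.14 against 0.00; the median in the stage effect in WT was -0.33 against -0.20, and with RLE factors -0.04. Leaving out 1 library gave 143 to 2468 calls over all genes in the source effect in SAF, 1 to 935 in that in PF, 3075 to 6594 in the stage effect in WT and 28 to 343 in the interaction.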
